A study of Mus musculus with 9 samples.

Results

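The cells of the pancreatic islets make and secrete large amounts of peptide hormone, and so they draw heavily on amino acids and on charged transfer RNA. A set of 39 genes that serve this supply was examined in islet RNA of db/db mice, of heterozygous db/+ mice and of wild-type (WT) mice. The set was fixed by name: 20 cytosolic tRNA synthetase genes, 9 plasma membrane amino acid transporter genes, 7 genes of serine, glycine, one-carbon and asparagine synthesis, and 3 others, the proline synthesis genes Aldh18a1 and Pycr1 and the transcription factor gene Atf5. All 39 were among the 52459 gene symbols of the count table, and all 39 passed the filter on low counts, as did 16826 genes in all.

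A tRNA synthetase joins one amino acid to its matching transfer RNA, and the ribosome then uses the charged transfer RNA to read a codon. When charged transfer RNA runs short, the kinase GCN2 slows general translation and favours translation of the transcription factor ATF4. ATF4, often with a C/EBP partner, is known to induce many synthetase, transporter and synthesis genes of this kind, and it does the same in the integrated stress response that begins in the endoplasmic reticulum.

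The 9 libraries were made from purified islets of mice aged 12 weeks, with 3 libraries in each genotype. WT libraries were labelled +/+, db/+ libraries heterozygous (+/-) and db/db libraries -/-. The db allele is a whole-body mutation of Lepr, the leptin receptor gene, and db/db mice become obese and diabetic. All 3 groups carry the same strain label, WT included. The labels do not say whether a library is 1 animal or a pool, so p-values measure the spread between these libraries only.

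Total counts were 8860024 to 11734886 per library. The summed level of 7 islet endocrine markers was 105093 to 141917 CPM (counts scaled to a common library size) in every library, so the tissue label held. Other cell types also contributed RNA. The sum of 22 acinar enzyme and factor genes was 7054 to 13266 CPM in WT, 16257 to 37100 in the db/+ libraries and 19710 to 54839 in db/db, where db/db 1 was highest. Duct markers (7 genes) summed to 292 to 300 CPM in WT, 298 to 322 in the db/+ libraries and 708 to 1235 in db/db. Stellate, fibroblast and pericyte markers (8 genes) summed to 215 to 324, 220 to 343 and 736 to 1983 CPM, and endothelial markers (6 genes) to 464 to 501, 446 to 490 and 526 to 725 CPM. Macrophage and lymphocyte markers (7 genes) summed to 34.3 to 102.6 CPM over all libraries, with 1 of the 7 at 0 in 5 libraries. In the other lists no marker was at 0 in any library, and except for the acinar values given later their part in the results was not tested. In bulk RNA, fewer cells of a type and less RNA per cell cannot be told apart. The labels give no sex. Xist, expressed from the inactive X chromosome of females, was at 565, 0.722 and 596 CPM in WT, below 1 in all 3 of the db/+ libraries and at 308, 948 and 858 in db/db, and 4 Y-linked genes summed to 219 to 343 CPM in WT, 373 to 417 in the db/+ libraries and 176, 1.11 and 0.108 in db/db. Both kinds of transcript were present in WT 1, WT 3 and db/db 1. Since the db/+ libraries had Y-linked counts without Xist and db/db 2 and 3 the reverse, sex and genotype are partly confounded in these comparisons. The share of counts on Gm42418 and Lars2, which overlap ribosomal RNA sequence, was 17.9% in db/db 1, 13.3% in db/db 2 and 0.0558% in db/db 3. It was 2.18%, 2.58% and 1.89% in WT and 0.0237%, 0.022% and 0.0221% in the db/+ libraries. WT and db/+ thus differed in this share without overlap, and the db/db libraries were not alike. The first letter of the sample titles was G for all db/+ libraries, for WT 1 and WT 2, and H for WT 3 and all db/db libraries.

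Levels are CPM on normalised library sizes, given per library in the order of replicates 1, 2 and 3 or as mean ± SD (n = 3), and differences are log2 fold changes ± SE. A gene is said to have risen or fallen when its adjusted p was below 0.05 by edgeR's two-sided quasi-likelihood test (Benjamini-Hochberg adjustment across the 16826 genes). A total of 3 counts, the limit that a count of 0 allows, equals 0.238 to 0.412 CPM, which covers counting error only. Positions are those of RefSeq on GRCm38, the assembly of the mm10 build.

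Promoter sequences are shown first because ATF4 acts on many of these genes through a short DNA element, the C/EBP-ATF response element. The letters TGATGNAA were searched on both strands, from 250 bases before to 50 bases after each start in the RefSeq promoter table (GRCm38.p6). Of 28 members with an entry, 8 (28.6%) held a match, against 1219 of 27025 genes (4.51%) with windows of the same length. A gene was counted if any of its entries held a match. Since ATF4 is already known to act on many of the members, these shares do not test the set. Cars, Hars, Lars, Nars, Rars, Slc1a5, Slc38a1, Slc7a3, Slc7a5, Vars and Wars had no entry. The lines below give the gene's own strand, 5′ to 3′, with the match in capitals. Where it lies on the other strand, the capitals are its reverse complement.
Pycr1: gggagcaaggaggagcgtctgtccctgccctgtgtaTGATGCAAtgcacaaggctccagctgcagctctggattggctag
Asns: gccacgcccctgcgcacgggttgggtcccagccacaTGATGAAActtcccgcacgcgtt
Tars: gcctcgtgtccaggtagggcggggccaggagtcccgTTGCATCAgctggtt
Gars: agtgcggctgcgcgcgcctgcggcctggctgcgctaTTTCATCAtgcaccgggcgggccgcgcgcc
Aars: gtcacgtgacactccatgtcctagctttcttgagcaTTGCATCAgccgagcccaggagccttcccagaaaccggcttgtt
Iars: tcagtaTTGCATCAcctcca
Slc1a4: cctgcgTTGCATCAtctcca
Yars: ctcagcTGATGCAAcccgac
The stretches are chr11:120643808-120643887 (minus strand) for Pycr1, chr6:7693210-7693268 (minus) for Asns, chr15:11399659-11399709 (minus) for Tars, chr6:55037935-55038000 (plus) for Gars and chr8:111033694-111033773 (plus) for Aars. Those of Iars, Slc1a4 and Yars are chr13:49682131-49682150 (plus), chr11:20332704-20332723 (minus) and chr4:129189900-129189919 (plus). Matches began 103 bases before the start in Pycr1, 23 in Asns, 15 in Tars, 30 in Gars and 112 in Aars. In Slc1a4 the match spanned the start, and in Iars, Yars and a further site of Aars it lay just after it. A match is a string of letters and not a measured binding site. The 8 genes did not move one way: against WT, db/db islets had higher Pycr1, Asns and Tars, lower Gars and Iars, and no called difference in Aars, Slc1a4 or Yars.

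Compared with WT, db/db islets had more RNA for proline and serine synthesis and for a few transporters, while synthetase genes were called in both directions. Of the 39 genes, 18 rose and 5 fell, against 21.8% of all tested genes that rose and 19.9% that fell (41.7% changed). The median log2 fold change was 0.29 over the 39 genes and 0.01 over all genes tested. The count of fallen genes depended on single libraries: it was 0 without WT 3, 1 without db/db 1, 2 without WT 2, 2 without db/db 2 and 3 without db/db 3, while 16 to 19 rose. With the acinar marker mean as a covariate 14 rose and 0 fell, and with the title letter as a covariate 16 rose and 1 fell. Library totals in place of normalisation factors shifted all genes by -0.22 and gave 13 risen and 6 fallen members, with 2176 and 5317 of all genes.

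**Figure D1:**
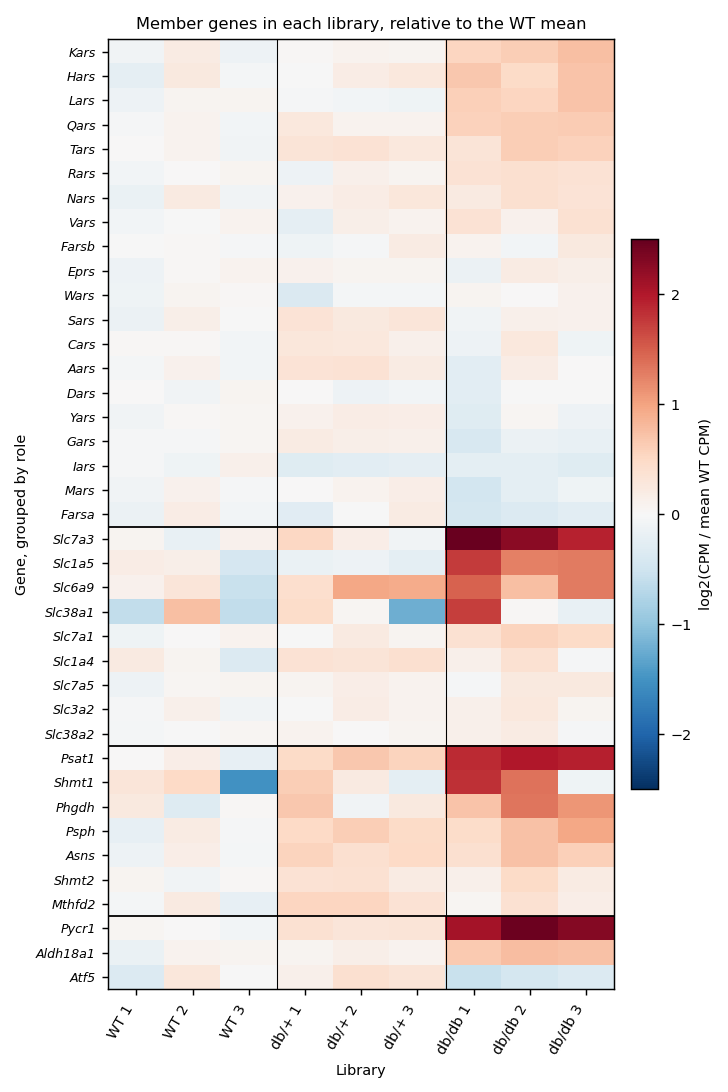
Level of each gene (rows, grouped by role and ordered by the db/db against WT difference) in each library (columns), as log2 of its CPM over the WT mean CPM, with red for higher and blue for lower. Pycr1, Psat1, Slc7a3 and Slc1a5 stand out in all 3 db/db libraries, while most synthetases stay close to the WT mean.

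Proline synthesis showed the largest fold change of the set. Pycr1 encodes the mitochondrial reductase that completes proline synthesis, and lies on chromosome 11 from 120638998 to 120643748. It measured 16.0, 15.5 and 14.6 CPM in WT, 20.1, 18.9 and 19.2 in the db/+ libraries and 65.3, 84.0 and 75.9 in db/db. Each db/db library was above every other library, and db/+ was narrowly above WT without overlap. Pycr1 rose by a log2 fold change of 2.28 ± 0.11 against WT (adjusted p = 3.68e-09) and by 1.95 ± 0.10 against db/+ (adjusted p = 1.21e-08), while db/+ against WT did not pass (0.33 ± 0.11, adjusted p = 0.156).

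Aldh18a1 encodes the enzyme that commits glutamate to proline and ornithine synthesis. Its levels were 124, 148 and 145 CPM in WT, 147, 154 and 149 in the db/+ libraries and 219, 236 and 231 in db/db. The db/db libraries again lay above all others, whereas WT and db/+ overlapped. The rise was 0.72 ± 0.08 against WT (adjusted p = 8.29e-06) and 0.61 ± 0.08 against db/+ (adjusted p = 3.60e-05).

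Atf5, a transcription factor related to ATF4 and active in the same stress pathway, went the other way. It measured 58.7, 91.0 and 74.1 CPM in WT, 81.5, 98.5 and 93.2 in the db/+ libraries and 50.6, 54.8 and 58.7 in db/db. All db/db libraries were below db/+, but db/db 3 and WT 1 were nearly equal. Atf5 fell by 0.73 ± 0.14 against db/+ (adjusted p = 0.00178) and by 0.44 ± 0.14 against WT (adjusted p = 0.0266). Its span overlaps Nup62 and Il4i1b, with which it may share counts, and leaving out any 1 of WT 2, WT 3, db/db 1 and db/db 2 ended the call against WT. It ended also with each of the 3 covariates, at -0.44 with the title letter, -0.54 with the Y-linked counts and -0.22 with the acinar markers. Over all alternatives the adjusted p ranged between 0.000229 and 0.546.

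Among the genes of serine, glycine and asparagine synthesis, 4 of 7 rose against WT (57.1%) and none fell, beside 21.8% and 19.9% of all genes. Psat1, the aminotransferase of the serine pathway, was at 11.5, 12.7 and 9.86 CPM in WT, 15.8, 18.1 and 16.7 in the db/+ libraries and 41.2, 45.5 and 43.4 in db/db. The 3 groups did not overlap. Psat1 rose by 1.93 ± 0.11 against WT (adjusted p = 3.21e-08), by 1.36 ± 0.11 against db/+ (adjusted p = 5.88e-07), and by 0.57 ± 0.12 in db/+ against WT (adjusted p = 0.0399). Phgdh, the first enzyme, was at 3.17, 2.17 and 2.74 CPM in WT, 4.29, 2.53 and 3.18 in the db/+ libraries and 4.39, 6.81 and 5.82 in db/db. Its db/db libraries lay above the rest, db/db 1 only just. Phgdh rose by 1.07 ± 0.27 against WT (adjusted p = 0.00591) and by 0.77 ± 0.26 against db/+ (adjusted p = 0.0309). The call against db/+ ended when any 1 of db/+ 2, db/+ 3, db/db 2 or db/db 3 was left out (adjusted p up to 0.629 over all alternatives). With the title letter as a covariate both calls ended at nearly the same differences (1.05 and 0.74), and with the Y-linked counts they ended at smaller ones (0.66 and 0.31).

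Psph, the phosphatase that releases serine, was at 6.98, 9.21 and 7.82 CPM in WT, 11.3, 12.2 and 11.1 in the db/+ libraries and 11.0, 13.4 and 15.6 in db/db. Both db/+ and db/db lay above WT, and they overlapped with each other. Psph rose against WT (0.74 ± 0.16, adjusted p = 0.00235) but did not pass against db/+ (0.21 ± 0.16, adjusted p = 0.30). With the Y-linked covariate its difference from WT was 0.43 and did not pass (adjusted p = 0.195), and its span overlaps Cct6a.

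Asns, which makes asparagine from aspartate and glutamine, followed the same order. It was at 132, 161 and 138 CPM in WT, 212, 191 and 204 in the db/+ libraries and 191, 239 and 217 in db/db. Each library of db/+ and db/db was above each of WT. Asns rose by 0.58 ± 0.10 in db/db (adjusted p = 0.000332) and by 0.49 ± 0.10 in db/+ (adjusted p = 0.0363) against WT, and db/db against db/+ did not pass (0.09 ± 0.10, adjusted p = 0.482).

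The mitochondrial folate enzyme gene Mthfd2 was highest in the heterozygotes. Its levels were 62.7, 75.4 and 56.7 CPM in WT, 93.7, 94.5 and 83.9 in the db/+ libraries and 67.5, 85.0 and 72.7 in db/db. The db/+ libraries were above all WT libraries, and db/db 2 reached into the db/+ range. Mthfd2 rose in db/+ against WT (0.48 ± 0.11, adjusted p = 0.0492), and neither db/db comparison passed (0.21 ± 0.11 against WT, adjusted p = 0.148, and -0.27 ± 0.11 against db/+, adjusted p = 0.0638). The difference from db/+ did pass in 6 of 18 alternatives, among them those without WT 2, WT 3 or db/db 2, and the difference from WT passed without WT 2.

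The pair of serine hydroxymethyltransferases interconvert serine and glycine, Shmt2 in mitochondria and Shmt1 in the cytosol. Shmt2 was at 18.1, 16.3 and 17.7 CPM in WT, 22.2, 22.4 and 19.99 in the db/+ libraries and 18.9, 24.0 and 20.04 in db/db, and passed in no comparison. It lies in a span that overlaps Ndufa4l2. Shmt1 was at 0.714, 0.813 and 0.203 CPM in WT, 0.889, 0.675 and 0.489 in the db/+ libraries and 2.06, 1.49 and 0.539 in db/db. These are only 2 to 15 counts per library. Shmt1 did not pass in any comparison (1.16 ± 0.55 against WT, adjusted p = 0.108), but it passed against WT without db/db 3 (adjusted p = 0.0375) and with the Y-linked covariate (1.97, adjusted p = 0.0471).

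**Figure D2:**
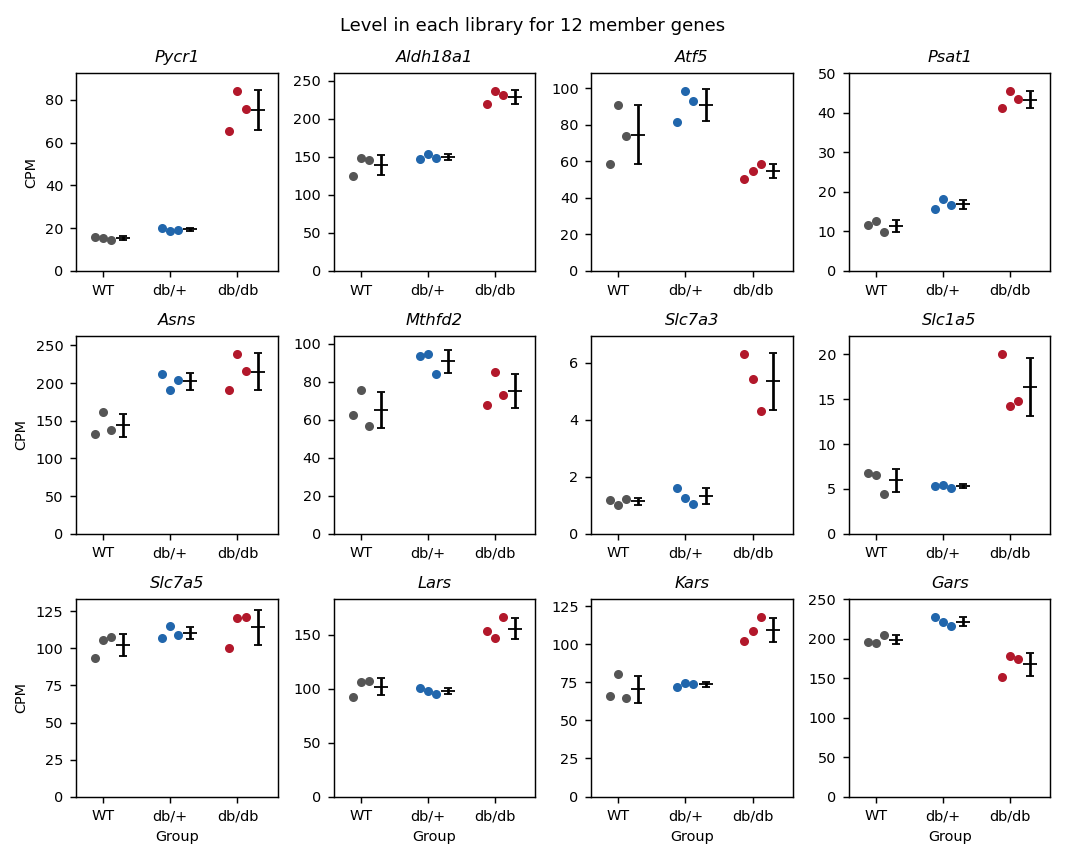
CPM of 12 genes in each library (points) with the group mean and SD (bar, n = 3) beside them, by genotype. All db/db points for Pycr1, Psat1, Slc7a3 and Slc1a5 lie above all other points. Asns is raised in both db/+ and db/db, and the means of Mthfd2, Atf5 and Gars are highest in db/+.

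Among the 9 transporters 4 rose against WT (44.4%) and none fell, beside 21.8% and 19.9% of all genes. Slc7a3, a carrier of arginine and lysine, was at 1.19, 0.993 and 1.22 CPM in WT, 1.62, 1.27 and 1.06 in the db/+ libraries and 6.31, 5.45 and 4.31 in db/db. Its db/db libraries lay well above the others, with 40 to 46 counts each against 11 to 20. Slc7a3 rose by 2.22 ± 0.29 against WT (adjusted p = 3.98e-05) and by 2.01 ± 0.28 against db/+ (adjusted p = 7.93e-05), and its span overlaps Snx12. The gene lies on the X chromosome, and sex and genotype are partly confounded here. Both calls held with the Y-linked covariate, while that against db/+ ended with the title letter (adjusted p = 0.0567).

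Slc1a5, a sodium-dependent carrier of glutamine and other neutral amino acids, was at 6.82, 6.59 and 4.47 CPM in WT, 5.34, 5.48 and 5.06 in the db/+ libraries and 20.03, 14.3 and 14.8 in db/db. Only db/db 1 exceeded 15 CPM, yet all 3 db/db libraries exceeded every other. The rise was 1.44 ± 0.19 against WT (adjusted p = 4.23e-05) and 1.62 ± 0.19 against db/+ (adjusted p = 1.63e-05). Slc6a9, the glycine transporter GlyT1, was at 5.48, 6.23 and 3.45 CPM in WT, 6.79, 9.87 and 9.63 in the db/+ libraries and 14.1, 8.55 and 12.5 in db/db. It rose against WT (1.20 ± 0.25, adjusted p = 0.00168) and overlapped db/+ (0.42 ± 0.23, adjusted p = 0.17). The Slc6a9 difference from WT was 0.67 with the acinar covariate and did not pass (adjusted p = 0.215), and its span overlaps Ccdc24.

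Slc7a1, the widely expressed carrier of arginine and lysine, was at 76.6, 82.9 and 86.8 CPM in WT, 81.7, 96.3 and 86.5 in the db/+ libraries and 107, 121 and 114 in db/db. The db/db libraries were above all others, with a rise of 0.48 ± 0.08 against WT (adjusted p = 0.000488) and 0.37 ± 0.08 against db/+ (adjusted p = 0.0029). On the scale of library totals neither Slc7a1 difference passed (0.26 against WT, adjusted p = 0.0899, and 0.15 against db/+, adjusted p = 0.348). The call against db/+ ended also with the title letter and with the Y-linked covariate, where that against WT held.

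The system L pair, which brings leucine and other large neutral amino acids into the cell, did not pass in any comparison. Slc7a5, the transporting subunit, was at 93.8, 105 and 108 CPM in WT, 107, 115 and 109 in the db/+ libraries and 100.4, 121 and 121 in db/db. Its partner Slc3a2 had means of 139 ± 11.1, 148 ± 9.35 and 154 ± 11.7 CPM in WT, db/+ and db/db. Groups overlapped for both genes. Without db/db 1, Slc7a5 passed against WT at 0.24 (adjusted p = 0.0292), as it did with the acinar covariate. Slc38a2, the adaptive sodium-coupled carrier of small neutral amino acids, was at 203, 209 and 217 CPM in WT, 223, 211 and 219 in the db/+ libraries and 228, 241 and 206 in db/db. Slc1a4, a carrier of serine, alanine and threonine, was at 33.6, 30.1 and 22.9 CPM in WT, 37.2, 36.03 and 37.9 in the db/+ libraries and 31.6, 37.3 and 28.3 in db/db. Neither Slc38a2 nor Slc1a4 passed in any comparison, and neither did Slc38a1, another sodium-coupled carrier, at 0.734 to 5.63 CPM. With the Y-linked covariate Slc38a1 passed against WT (1.96, adjusted p = 0.0211) and against db/+ (2.18, adjusted p = 0.0167), while without db/db 1 its differences were -0.08 and 0.01.

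**Figure D3:**
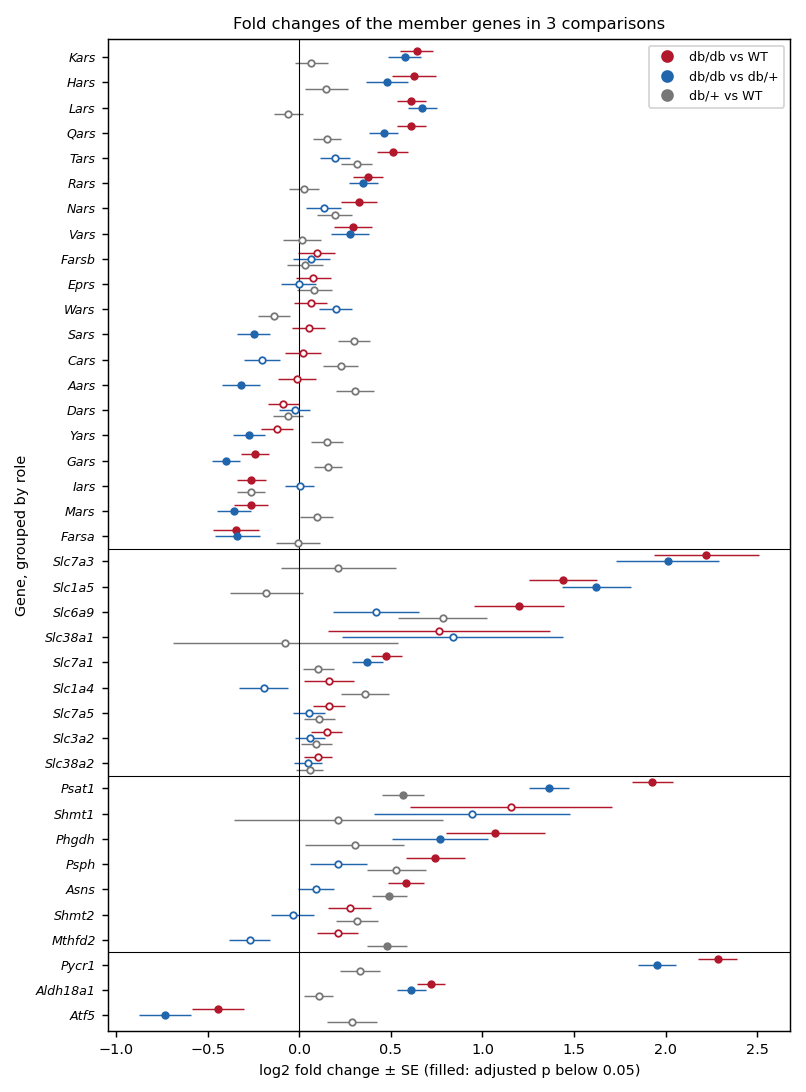
Log2 fold change ± SE of each gene (rows, grouped by role) for db/db against WT (red), db/db against db/+ (blue) and db/+ against WT (grey), with filled points where the adjusted p was below 0.05. The comparisons share groups, so their points are not independent. Synthetase genes lie between -0.40 and 0.67, and Pycr1 reaches 2.28.

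The 20 cytosolic synthetase genes split, with 8 that rose, 4 that fell and 8 that did not pass in db/db against WT. These shares are 40% and 20%, beside 21.8% and 19.9% of all genes, and the median was 0.07 beside 0.01. Lars, which charges leucine, was at 92.6, 106 and 107 CPM in WT, 100.2, 97.7 and 94.95 in the db/+ libraries and 153, 147 and 166 in db/db. The db/db libraries stood clear of the rest, and Lars rose by 0.61 ± 0.08 (adjusted p = 3.62e-05) against WT and by 0.67 ± 0.08 (adjusted p = 1.63e-05) against db/+. Its span holds the pseudogene Rps19-ps4. Kars, the lysine enzyme, which also serves mitochondria, was at 65.9, 80.7 and 64.6 CPM in WT, 72.04, 74.8 and 74.2 in the db/+ libraries and 102, 109 and 118 in db/db. Kars rose by 0.64 ± 0.09 against WT (adjusted p = 8.78e-05) and by 0.58 ± 0.09 against db/+ (adjusted p = 0.000215), without overlap.

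Qars, the glutamine enzyme, was at 54.2, 58.6 and 53.0 CPM in WT, 66.7, 58.6 and 58.8 in the db/+ libraries and 82.7, 85.2 and 85.3 in db/db. It rose by 0.61 ± 0.08 against WT (adjusted p = 3.52e-05) and by 0.46 ± 0.08 against db/+ (adjusted p = 0.000376). Tars, the threonine enzyme, took the graded order seen for Psph, at 92.4, 97.7 and 86.6 CPM in WT, 116, 118 and 110 in the db/+ libraries and 116, 141 and 137 in db/db. Tars rose against WT (0.51 ± 0.09, adjusted p = 0.000343) and did not pass against db/+ (0.20 ± 0.08, adjusted p = 0.0806). On the scale of library totals the Tars difference from WT did not pass (0.29, adjusted p = 0.0654). The other genes that rose against WT were Hars (0.63 ± 0.12), Rars (0.38 ± 0.08), Nars (0.33 ± 0.10) and Vars (0.29 ± 0.10), which charge histidine, arginine, asparagine and valine. The Rars call ended with library totals (0.15, adjusted p = 0.314), the title letter (0.31, adjusted p = 0.0664) and the acinar covariate (0.36, adjusted p = 0.0932). The span of Hars overlaps its mitochondrial counterpart Hars2, and with the acinar covariate Hars did not pass, at a similar difference with a wider SE (0.58 ± 0.21, adjusted p = 0.0648). The Vars and Nars calls each ended without WT 1 or db/db 3. That of Vars also ended without WT 2 or db/db 1 (adjusted p up to 0.682 over all alternatives), and that of Nars without WT 3 or db/db 2 (up to 0.517).

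The 4 synthetases that fell against WT did so by small amounts. Gars, the glycine enzyme of cytosol and mitochondria, was at 196, 195 and 205 CPM in WT, 228, 221 and 216 in the db/+ libraries and 151, 179 and 174 in db/db. It was below both other groups in every db/db library, and fell by 0.24 ± 0.08 against WT (adjusted p = 0.0209) and by 0.40 ± 0.08 against db/+ (adjusted p = 0.000983). Mars, the methionine enzyme, was at 93.1, 107 and 97.8 CPM in WT, 100.3, 106 and 112 in the db/+ libraries and 72.04, 83.7 and 91.9 in db/db. Mars fell by 0.26 ± 0.09 against WT (adjusted p = 0.0344) and by 0.36 ± 0.09 against db/+ (adjusted p = 0.00715). Its span overlaps Ddit3.

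Iars, the isoleucine enzyme, was at 77.4, 72.7 and 86.1 CPM in WT, 63.8, 65.6 and 67.4 in the db/+ libraries and 66.8, 66.4 and 63.7 in db/db. WT was above both other groups, which overlapped. Iars fell by 0.26 ± 0.08 in db/db against WT (adjusted p = 0.0159), while the like difference in db/+ did not pass (-0.26 ± 0.08, adjusted p = 0.112). Farsa, the alpha subunit of the phenylalanine enzyme, was at 40.8, 51.0 and 43.2 CPM in WT, 37.2, 44.9 and 52.2 in the db/+ libraries and 33.2, 35.6 and 37.3 in db/db. Farsa fell by 0.35 ± 0.13 against WT (adjusted p = 0.0391), while its partner subunit gene Farsb did not pass (0.10 ± 0.10, adjusted p = 0.475). The 4 falls are near the threshold. Without WT 3 all 4 calls ended, with differences of -0.38 for Farsa, -0.28 for Mars, -0.22 for Gars and -0.20 for Iars (adjusted p = 0.0567 to 0.0638). With the acinar covariate the 4 calls also ended: the differences of Gars (-0.06) and Mars (-0.12) were smaller, while those of Farsa (-0.42) and Iars (-0.30) were larger with wider SE (0.22 and 0.14). The calls of Gars, Mars and Farsa ended also without db/db 1, where Iars still fell (-0.27, adjusted p = 0.0261). The Iars call ended without db/db 3, that of Mars without WT 2 or db/db 2, and that of Farsa without WT 2, db/+ 2, db/db 2 or db/db 3.

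The remaining 8 synthetases, Aars, Cars, Dars, Eprs, Farsb, Sars, Wars and Yars, had differences from WT between -0.12 and 0.10. Eprs, which charges glutamate and proline with 1 protein, stood at 363 ± 27.0, 383 ± 7.996 and 382 ± 47.3 in WT, db/+ and db/db. Per kilobase of annotated exon, Gars was highest in WT (83.1 CPM per kb), followed by Nars (79.5), Sars (58.1) and Asns (52.6), and Eprs came to 50.4. In db/db the order by this measure began with Nars (99.5), Asns (78.7) and Gars (70.3). Pycr1 moved from rank 32 of 39 in WT (3.91 CPM per kb) to rank 23 in db/db (19.1). These ranks rest on exon lengths from an older assembly's annotation, and neighbouring genes in them were not tested.

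A group of 8 synthetases is held with scaffold proteins in the multisynthetase complex, a grouping applied after the values were seen. Of the 8, Kars, Lars, Qars and Rars rose against WT, Iars and Mars fell, and Dars and Eprs did not pass. Of the 12 outside it, 4 rose, 2 fell and 6 did not pass. Of all tested genes 21.8% rose and 19.9% fell. Of the scaffold genes, Aimp1 rose by 0.47 ± 0.10 (adjusted p = 0.00267), while Aimp2 (0.22 ± 0.15, adjusted p = 0.257) and Eef1e1 (0.17 ± 0.18, adjusted p = 0.476) did not pass.

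Set against db/+ islets, db/db islets had fewer called-higher and more called-lower genes of the set than against WT, and the share that fell was near that of all genes. Of 39 genes 13 rose (33.3%) and 7 fell (17.9%), beside 20.6% and 19.7% of all genes (40.3% changed). The medians were 0.13 over the set and 0.01 over all genes. The 7 that fell were Gars, Mars, Farsa, Aars, Sars, Yars and Atf5. Aars, the alanine enzyme, was at 217, 244 and 215 CPM in WT, 286, 289 and 261 in the db/+ libraries and 188, 256 and 226 in db/db. It had its highest mean in db/+, fell by 0.32 ± 0.10 against db/+ (adjusted p = 0.0244) and was close to WT (-0.01 ± 0.10). Sars, the serine enzyme, had means of 212 ± 22.0, 261 ± 7.88 and 220 ± 17.9 CPM in the 3 groups, and Yars, the tyrosine enzyme, 92.4 ± 4.48, 103 ± 3.25 and 84.7 ± 10.3. The number that fell was 3 without db/db 1, without db/db 3 or without db/+ 2, and 4 without db/+ 3. Each of the calls of Aars, Sars and Yars ended without db/db 1, db/db 3 or db/+ 2. Those of Sars and Yars ended also without db/+ 3, those of Aars and Sars without db/+ 1, and that of Farsa without WT 3, db/+ 2, db/+ 3 or any 1 db/db library. On the scale of library totals 7 members rose and 10 fell, while the median over all genes moved to -0.22 (2011 risen and 5265 fallen). With the title letter as a covariate 7 rose and 1 fell. Letter and genotype coincide in db/+ and db/db, so in that fit the letter is estimated from the WT libraries. With the Y-linked covariate 9 rose and 6 fell. The calls of Hars, Rars, Slc7a1, Phgdh, Vars and Farsa against db/+ ended with it, and Slc38a1 passed.

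The comparison of db/+ with WT asks whether 1 mutant allele goes with a difference. Of the 39 genes 3 rose, Asns, Psat1 and Mthfd2, and none fell, beside 0.606% of all genes that rose and 0.82% that fell (1.43% changed). Fold changes were above 0 for 32 of the 39, beside 8912 of all 16826 genes, with medians of 0.15 over the set and 0.02 over all genes. Beyond the called genes, db/+ means exceeded WT means for Tars (115 ± 4.15 against 92.2 ± 5.57 CPM, adjusted p = 0.0905), Sars (adjusted p = 0.113) and Slc6a9 (8.76 ± 1.71 against 5.05 ± 1.44, adjusted p = 0.139), none of which passed. The 3 calls depended on single libraries: 0 of the 39 were called without WT 1, WT 3, db/db 3 or any 1 of the db/+ libraries, and 1 without db/db 2, while DESeq2 called 5. The share of counts on Gm42418 and Lars2 was higher in each WT library than in each db/+ library. With these 2 genes removed 2 members were called, and the part of this share was not tested further. The acinar marker sum was also higher in each db/+ library than in each WT library, and with it as a covariate Asns alone passed (0.67, adjusted p = 0.0272), while Psat1 (0.60, adjusted p = 0.138) and Mthfd2 (0.67, adjusted p = 0.0574) did not.

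Acinar cells synthesise protein in bulk and express many of the same genes, so the members were read beside the acinar content of each library. The libraries db/+ 2, db/db 2 and db/db 3 had nearly equal acinar sums of 20468, 19710 and 20436 CPM. At those sums Pycr1 was at 18.9, 84.0 and 75.9 CPM, Psat1 at 18.1, 45.5 and 43.4, and Lars at 97.7, 147 and 166. In the library with the highest acinar content, db/db 1 (54839 CPM), Pycr1 and Psat1 were the lowest of the 3 db/db values. With the acinar covariate Pycr1 differed from WT by 2.47 and Psat1 by 1.98, while over the 39 genes 14 rose and 0 fell, beside 18 and 5 without it. Slc6a9 and Slc1a5 were highest in db/db 1. The genes named here are a choice from the set, and the part of acinar RNA in the values of any of them was not tested further. Duct and stellate markers were also highest in db/db 1, and their part was not tested.

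**Figure D4:**
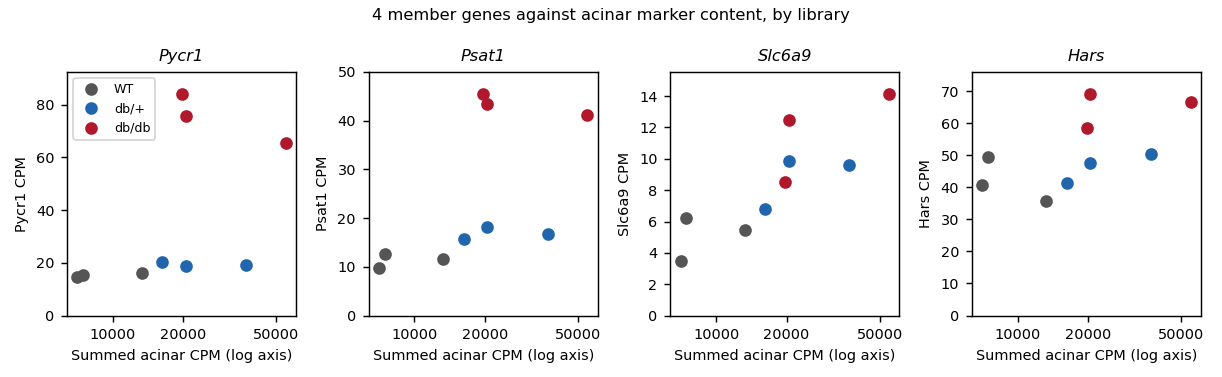
CPM of Pycr1, Psat1, Slc6a9 and Hars (vertical axes) against the summed CPM of 22 acinar genes (horizontal, log axis), 1 point per library. The db/db points for Pycr1 and Psat1 lie above the db/+ library with an acinar sum of 20468 CPM. Slc6a9 lies below that library in db/db 2 (8.55 CPM) and above it in db/db 3 (12.5 CPM). The part of acinar RNA was not tested further.

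Other genes of amino acid supply were counted in 7 further lists. Of 28 tested transporters outside the set, 12 rose (42.9%) and 2 fell (7.14%) against WT, beside 21.8% and 19.9% of all tested genes. Slc7a11, the cystine carrier that feeds glutathione synthesis, rose from 3.33, 2.62 and 3.05 CPM in WT to 30.7, 42.7 and 27.3 in db/db (3.47 ± 0.32, adjusted p = 1.58e-05), with 4.04, 5.65 and 9.87 in db/+. Slc38a10 (0.83 ± 0.10) and Slc38a5 (2.01 ± 0.25) also rose. The fallen transporters were Slc7a2 (-1.21 ± 0.13), a carrier of arginine and lysine like Slc7a1 and Slc7a3, and Slc7a8 (-1.07 ± 0.19), another light chain partner of Slc3a2. Slc7a2 was at 697, 520 and 716 CPM in WT and 249, 322 and 265 in db/db, without overlap.

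In the list of other amino acid synthesis genes 6 of 18 rose (33.3%) and 3 fell (16.7%) against WT, beside 21.8% and 19.9% of all genes. Oat, which links ornithine with proline and glutamate, rose by 1.80 ± 0.15 (adjusted p = 1.21e-06), from 12.1 to 15.2 CPM in WT to 38.3 to 53.4 in db/db. The transaminase genes Gpt2 (1.28 ± 0.17) and Got1 (0.53 ± 0.10) rose as well. Glul, the glutamine synthetase gene, fell by 1.05 ± 0.10, Mat2a, which makes S-adenosylmethionine, by 0.83 ± 0.13, and Asl by 0.38 ± 0.12. Of 16 one-carbon and glycine cleavage genes 7 rose (43.8%) and 1 fell (6.25%), beside the same shares of all genes. Aldh1l2, the mitochondrial formyl-folate dehydrogenase, rose by 0.996 ± 0.083 (adjusted p = 8.43e-07) and Gldc of the glycine cleavage system by 3.31 ± 0.43. Mthfd1, the cytosolic relative of Mthfd2, fell by 1.44 ± 0.09 (adjusted p = 4.49e-08), from 134 to 141 CPM in WT to 44.5 to 57.2 in db/db. Aldh1l2 also rose in db/+ against WT (0.61 ± 0.08, adjusted p = 0.00512).

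Of 17 mitochondrial synthetase genes, none rose and 3 fell against WT: Nars2 (-0.70 ± 0.13), Aars2 (-0.61 ± 0.17) and Vars2 (-0.39 ± 0.13). The 3 are 17.6% of the list, near the 19.9% of all genes that fell, while 21.8% of all genes rose. Against db/+ the same list had 1 risen gene (5.88%, beside 20.6% of all genes) and 3 fallen (17.6%, beside 19.7%). The risen gene was Lars2, whose counts are uncertain, since its locus overlaps ribosomal RNA sequence. In the list of synthetase complex and charging accessory genes 2 of 13 rose (15.4%) and 3 fell (23.1%) against WT, beside 21.8% and 19.9% of all genes. Eef1a1, the elongation factor that carries charged transfer RNA to the ribosome, rose by 0.88 ± 0.08 (adjusted p = 1.51e-06). Sepsecs, which makes the selenocysteine form of its transfer RNA, fell by 0.81 ± 0.09 (adjusted p = 5.95e-06), Gatb by 0.43 ± 0.14 and Tarsl2 by 0.33 ± 0.11.

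Of 22 genes of the amino acid shortage response, the GCN2 and ATF4 pathway, 11 rose (50%) and 1 fell (4.55%) in db/db against WT. Of all tested genes 21.8% rose and 19.9% fell. In db/+ against WT 6 of the 22 rose (27.3%) and none fell, beside 0.606% and 0.82% of all genes. Calls in db/+ against WT depended on single libraries: over all genes 102 rose, but 23 to 178 with 1 library left out. In db/db against db/+ 7 of the 22 rose and 7 fell (31.8% each), beside 20.6% and 19.7% of all genes. Eif4ebp1, a brake on translation, rose by 1.29 ± 0.14 in db/db against WT, Chac1, which degrades glutathione, by 1.15 ± 0.15 and the pseudokinase gene Trib3 by 1.08 ± 0.17. Impact, which encodes an inhibitor of GCN2, fell by 0.52 ± 0.07 (adjusted p = 3.82e-05). Ddit3, which encodes CHOP, was at 106, 78.7 and 86.4 CPM in WT, 299, 230 and 218 in the db/+ libraries and 72.7, 120 and 118 in db/db. Ddit3 had its highest mean in db/+, where it rose by 1.46 ± 0.21 against WT (adjusted p = 0.0362). Means were highest in db/+ also for Mthfd2, Shmt2, Slc1a4, Atf5 and the synthetases Aars, Cars, Eprs, Gars, Mars, Sars and Yars. For Eprs (383.3 in db/+ and 382.1 CPM in db/db) and Shmt2 (21.55 and 21 CPM) the 2 means were nearly equal. How many of all genes have their highest mean in db/+ was not counted. The span of Mars overlaps Ddit3. Atf4 itself was at 390, 440 and 395 CPM in WT, 555, 541 and 515 in the db/+ libraries and 381, 472 and 463 in db/db, and fell by 0.29 ± 0.09 in db/db against db/+ (adjusted p = 0.0231). Ddit3 and Atf4 were chosen after their values were seen.

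Among genes of amino acid sensing upstream of the growth kinase complex mTORC1, 2 of 27 rose (7.41%), 9 fell (33.3%) and 16 did not pass against WT, beside 21.8% and 19.9% of all genes. Flcn, folliculin, fell by 1.07 ± 0.08 (adjusted p = 2.96e-07), from 92.7 to 104 CPM in WT to 43.0 to 50.5 in db/db. Tsc1, of the complex that restrains mTORC1, fell by 0.54 ± 0.08, and Mlst8, a subunit of mTORC1, by 0.61 ± 0.10. Sec13, of the GATOR2 complex, rose by 0.62 ± 0.09 and Lamtor2, of the Ragulator complex, by 0.82 ± 0.21.

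**Figure D5:**
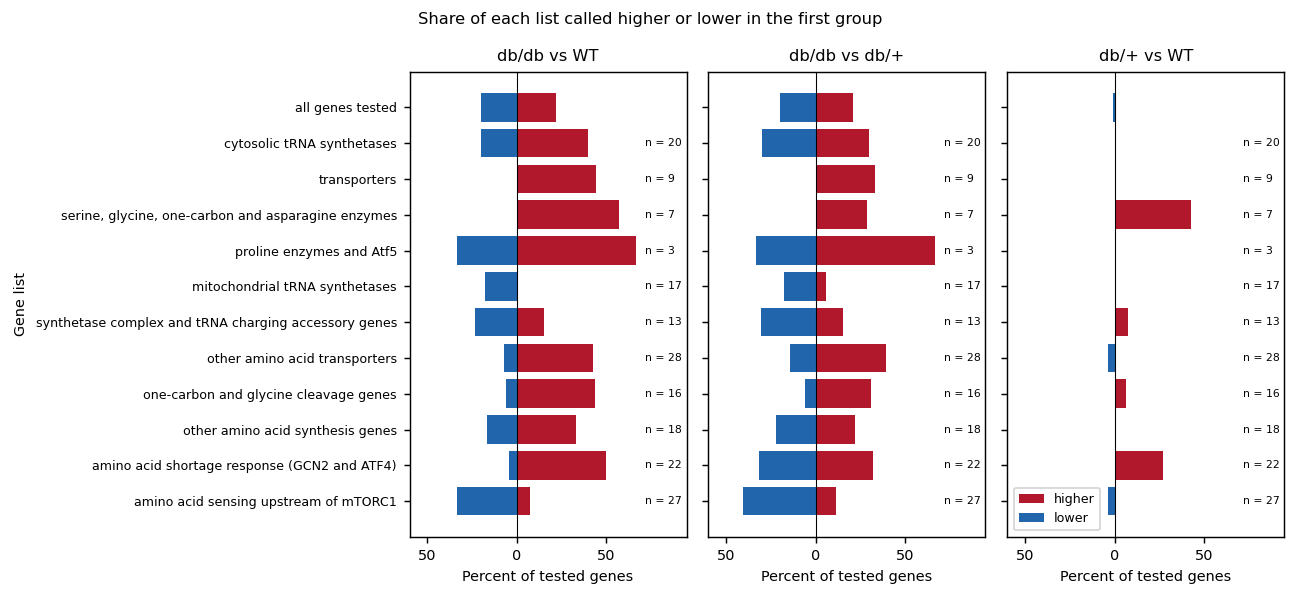
Percent of the tested genes of each list (rows, n beside the bars) that were called higher (red, right) or lower (blue, left) in the first-named group of each comparison, with all 16826 tested genes at the top. In db/db against WT the shortage response and transporter lists have 11 of 22 and 12 of 28 genes called higher. The mTORC1 sensing list, which includes genes of mTORC1 itself, has 9 of 27 called lower.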

How the data were processed

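RNA of purified islets was sequenced after ribosomal RNA removal (Ribo-Zero Gold), per the labels' protocols. Per the submitters' processing notes, bcl2fastq 2.20.0.422 and TopHat2 2.0.14 were used with the mm10 build. The authors deposited whole-number read counts per gene symbol in 1 table, without normalisation. The counting program, the annotation and the strand setting: not given in the sources used here. Overlapping genes can therefore share counts, and 17 of the 39 members have a RefSeq span that overlaps another gene. The table has 1 column that matches no sample, which was not used.

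Genes were kept by filterByExpr, scaled with TMM factors, and fitted in edgeR 4.0.16 (R 4.3.3) to the 9 libraries together with 1 term per group (robust fit, 6 residual degrees of freedom, common biological coefficient of variation 0.129). SE were derived from the fold change and the F statistic. The tests were first tested on simulated data. Alternatives were DESeq2 size factors or library totals, no low-count filter, DESeq2 1.42.0, only the compared groups, 3 covariates (title letter, acinar mean, Y-linked counts), removal of Gm42418 and Lars2, and each library left out. Members and lists were chosen with earlier results of these data known. In each role group, values per library are given for the 4 risen and 4 fallen genes with the smallest adjusted p against WT, the extremes against db/+ and the calls in db/+, and up to 3 and 3 genes are named per further list (1 such gene and the full strain name are not reported here). Levels per kilobase used exon lengths of GENCODE on the NCBIM37 assembly, for lengths only. Figures were drawn with matplotlib 3.10.9.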

Additional observations from a re-analysis of the deposited data

How the results depend on the processing

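Every member called in a comparison kept its direction under all alternatives run. Against WT, 9 of 23 calls held under every alternative (Aldh18a1, Asns, Kars, Lars, Psat1, Pycr1, Qars, Slc1a5 and Slc7a3), against db/+ 7 of 20 (Aldh18a1, Gars, Kars, Lars, Psat1, Pycr1 and Slc1a5), and in db/+ against WT 0 of 3. Members that were not called changed sign in 27, 42 and 19 single values of the 3 comparisons, and none was called in the opposite direction. In db/db against WT the 23 changed members became 14 with the acinar covariate. The 5 fallen ones became 1 with the title letter, 0 with the acinar covariate and 2 with the Y-linked covariate, and 0 to 5 with 1 library left out. In db/db against db/+ the 20 changed became 8 with the title letter, the 13 risen became 7 with library totals and 7 with the title letter, and the 7 fallen became 1 with the title letter and 3 to 8 with 1 library left out. With the Y-linked covariate the risen became 9 and the fallen 6. In db/+ against WT the 3 changed members, all risen, became 0 with library totals, 5 without the low-count filter, 5 with DESeq2, 0 with the title letter, 1 with the acinar covariate, and 0 to 4 with 1 library left out. The cause was not tested. Over all genes in db/+ against WT, 102 rose and 138 fell, but 229 and 404 with DESeq2, 244 and 524 without the filter, 34 and 11 with the title letter, and 23 and 0 without db/+ 1. Low counts (2 to 15 per library for Shmt1) and 3 libraries per group limit the precision. Shmt1 was not tested with the compared groups only or without Gm42418 and Lars2, and DESeq2 gave no adjusted p for Phgdh, Shmt1, Slc38a1 and Slc7a3 in db/+ against WT. No paired analysis was possible because the labels give no replicate numbers.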
